A study of Arabidopsis thaliana with 9 samples.

Results

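The loss of NAC25 was examined in whole Arabidopsis thaliana seeds by comparing every gene of the nac25 mutant with wild type (WT) 12 h after the start of imbibition. The comparison holds 33557 genes, which are all the genes the study lists, and uses 6 of its 9 libraries, 3 biological replicates of each genotype. WT was the Col-0 accession, and nac25 was labelled a loss-of-function mutant; both were imbibed in the same way, with no added agent or treatment named. The third genotype, the loss-of-function mutant nac1L, is used here only where a direct comparison with nac25 bears on a result. Neither the kind of lesion nor the number of independent alleles is given in the sources used here.

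NAC proteins are plant-specific transcription factors that share a DNA-binding domain named after the first members described. In a germinating seed the embryo takes up water, resumes metabolism and grows through the endosperm, the living layer that encloses it. Growth of both tissues needs looser cell walls, water channels, new membranes and proteins, while genes of seed maturation are switched off.

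Every fold and q printed for a gene was copied from the authors' deposited table, which holds no value per library, so levels, spread and depth were unknown. Folds are log2 values of nac25 over WT. A q of 0.05 or less made a gene higher or lower in what follows. The table had a test for 18155 genes, or 54.1%, while 15382 had too few reads, 16 too many and 4 a failed test. NAC25 itself (NAC025, AT1G61110) stood at -3.97 in the authors' deposited table but had too few reads for a test, so its loss was not tested. NAC1L, taken here as AT3G12977, stood at -1.89 in nac25 in the authors' deposited table, also without a test. Genes with too many reads included the storage protein genes CRA1, CRU3, SESA3 and SESA5, the oil body gene OLEO1 and EPR1, an extensin-like gene of the endosperm. Fewer cells of a type and less RNA per cell cannot be told apart in whole seeds, and neither can dependence on NAC25 and a lag of the mutant in germination, since all seeds were taken at 12 h.

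The transcriptome of nac25 was shifted downward. Of the tested genes 5951 were lower (32.8%) and 1135 higher (6.25%), so that 84.0% of the 7086 called genes were lower. The lower genes also went further. Their median log2 fold was -0.77 against 0.57 for the higher genes, 529 of them were lower by at least 4-fold, and 40 by at least 16-fold, while 4 genes were higher by at least 4-fold. The median of all 18085 tested genes with a finite fold was -0.27, and the middle 50% of them lay between -0.64 and 0.03. After centring on that median, with p-values recomputed, 3084 genes were lower (17.1%) and 3153 higher (17.4%), so that 49.4% of calls were lower. Tested genes listed at 0 in nac25 (51) or in WT (19) have no finite fold. They were left out of centring, so any call they had is missing from every centred count for that reason alone. Where p is the smallest the table gives, centring can end a lower call but not a higher one, so the centred split is partly set by the method. Which scale is right cannot be settled from the table, because the normalization is not given in the sources used here. Counts of gene groups are therefore given before and after centring. A share of lower members near 32.8% before centring or 17.1% after it, and of higher members near 6.25% or 17.4%, is no more than the tested genes as a whole show.

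**Figure D1:**
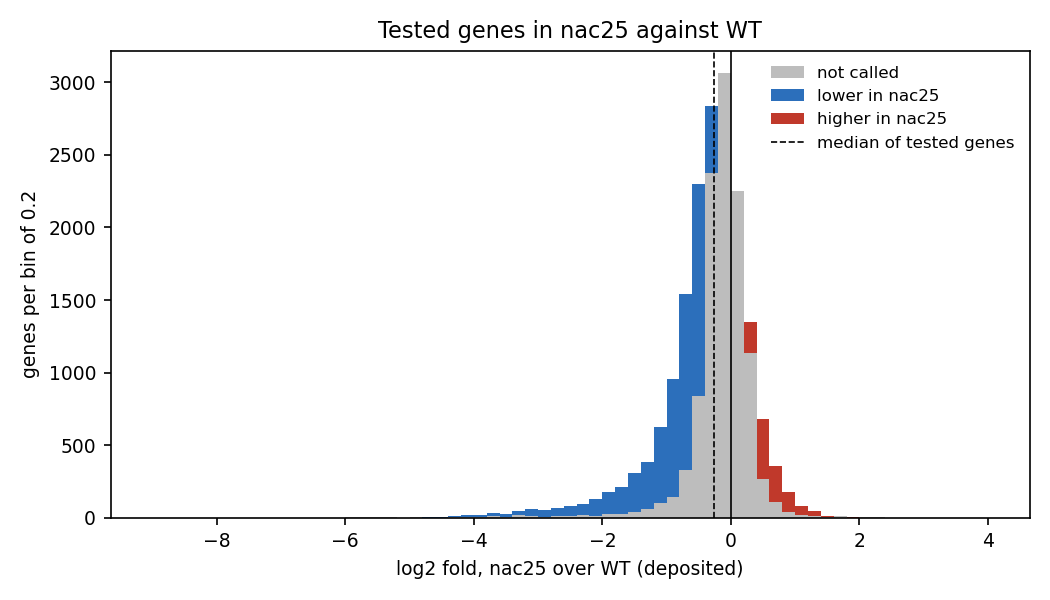
Log2 fold of nac25 over WT (x axis) for the 18085 tested genes with a finite fold, counted in bins of 0.2 (y axis). Colours mark genes lower, higher or not called, and the dashed line is the median of -0.27; the lower tail reaches further from 0 than the higher tail.

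Several of the genes with the largest reductions came from the cell wall lists below. These were XTH4, XTH31, XTH18, the expansin gene EXPA2, the pectin lyase-like gene AT3G15720 and the arabinogalactan protein gene AGP12. The nitrate genes LBD39 and NIA2 and the subtilase gene AT5G59130 were also among the largest reductions. The others had varied annotations, and AT5G14690 and RE2 were annotated as uncharacterised. The zinc finger gene ZFP4 had the lowest fold among called genes, -6.47 (q = 0.014) in the authors' deposited table. SUC1, which carries sucrose into cells together with protons, was lower by 22.9-fold (-4.52, q = 0.000463) in the authors' deposited table. ADS1, a fatty acid desaturase gene, stood at -4.59 (q = 0.000463) and the beta-xylosidase gene XYL4 at -4.49 (q = 0.0029) in the authors' deposited table. The value 0.000463 is the smallest q the table holds and was shared by 3534 called genes, so it does not rank them. The largest increases were smaller. AT4G25830, of an uncharacterised protein family, stood at 2.46 (q = 0.00124), and 5PTASE11, an inositol polyphosphate phosphatase gene, at 2.30 (q = 0.015) in the authors' deposited table. The cytochrome P450 gene CYP81D11 (2.26), the transporter gene ABCB9 (1.91) and the calmodulin-like gene CML41 (1.81) were among the other named increases, each at q = 0.000463 in the authors' deposited table.

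Genes for both enzymatic steps of nitrate reduction were lower in nac25. Of 23 tested genes of nitrate assimilation and nitrate response, 13 were lower (56.5%) and 3 higher, with a list median of -0.73, and 10 were lower and 3 higher after centring. Nitrate reductase turns nitrate into nitrite, and its gene NIA2 was 45.1-fold lower (-5.49, q = 0.000463) in the authors' deposited table. NIR1, which encodes nitrite reductase, the next enzyme, was 8.43-fold lower (-3.08, q = 0.000463) in the authors' deposited table. LBD39, a nitrate-induced transcription factor gene, stood at -6.10 (q = 0.00351) and the myb-like factor gene AT1G25550 at -4.09 (q = 0.000463) in the authors' deposited table. The second nitrate reductase gene NIA1 (-2.18) and the ferredoxin reductase gene RFNR1 (-1.44), both picked with their values known, were also lower in the authors' deposited table.

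None of the 3 higher members encodes an enzyme, but regulator genes were among the lower members too. NLP7, a master regulator of the nitrate response, stood at 0.52 (q = 0.00226) and AT2G43500, of the same RWP-RK family, at 0.82 (q = 0.000463) in the authors' deposited table. The third was the nitrate transporter and sensor gene NRT1.1 (0.48 in the authors' deposited table), named after its value was seen. The direct comparison of nac25 with nac1L called 2 of 19 tested members, both lower in nac25, where 11.7% of all tested genes were lower and 0.609% higher. NIA2 and LBD39 had no test there, and NIR1 stood at 0.00 in that comparison in the authors' deposited table.

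**Figure D2:**
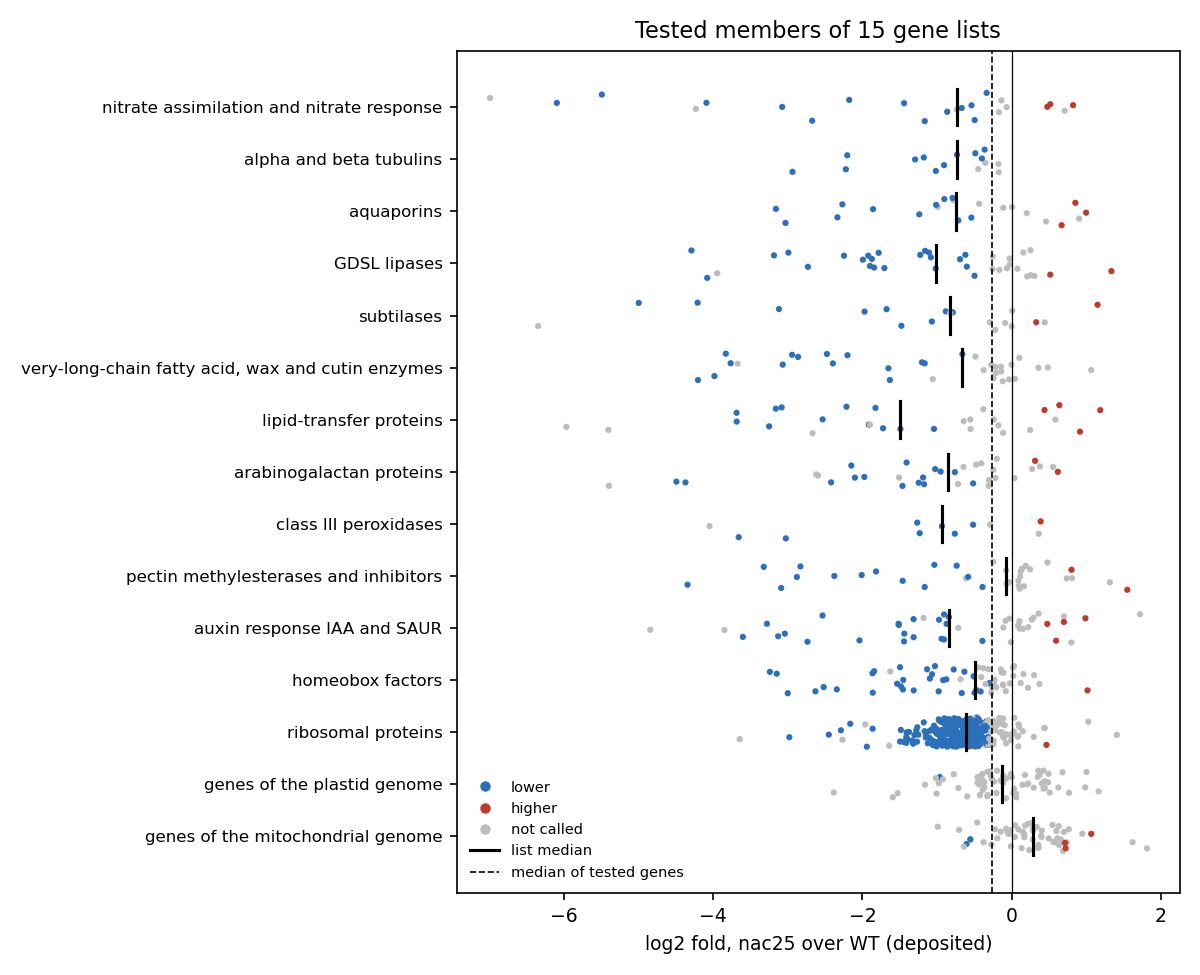
Log2 fold of nac25 over WT (x axis) for each tested member with a finite fold in 15 gene lists, one dot a gene, coloured by call. Black bars are list medians and the dashed line the median of all tested genes; the members of the nitrate, lipase and lipid-transfer lists spread far to the left, whereas ribosomal protein genes form 1 compact cluster around -0.61.

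Most ribosomal protein genes were lower. Of 348 tested, 287 were lower (82.5%) and 1 was higher, but the change was small: the median was -0.61, the middle 50% lay between -0.83 and -0.43, and 40 (11.5%) were lower by at least 2-fold, against 11.1% of all tested genes, of which 0.683% were higher by as much. After centring, 149 were still lower (42.8%) and 4 were higher, against 17.1% and 17.4% of all tested genes. The S12/S23 family gene AT3G09680 stood at -2.98 and AT1G23410, of the S27a/ubiquitin fusion family, at -2.45 (both q = 0.000463) in the authors' deposited table. AT3G14595, annotated to the L18ae family, was the member that was higher (0.47, q = 0.000463) in the authors' deposited table. Many ribosomal proteins are encoded by close copies, and how the authors' software divided reads between copies is not known, so single members are uncertain.

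Few genes carried by the organelles were called. Of 69 tested genes of the plastid genome 1 was lower (1.45%) and 2 were higher, and of 61 tested genes of the mitochondrial genome 2 were lower (3.28%) and 4 higher. Centring covered the 66 plastid and 60 mitochondrial genes with a finite fold. Of these, 1 plastid gene was lower and 3 were higher, and 9 mitochondrial genes were higher. TRNP and PSAI, the 2 plastid genes higher before centring, and the mitochondrial gene TRNG were listed at 0 in WT and left out. The 3 plastid genes higher after centring are therefore others. The median folds of the plastid and mitochondrial genes were -0.13 and 0.28. The share of lower genes on the 5 nuclear chromosomes ran from 31.9% to 33.6%. PSBA, which encodes a core protein of photosystem II, was the lower plastid gene (-0.96, q = 0.000463) in the authors' deposited table. Both lower mitochondrial genes encode ribosomal RNA, RRN26 (-0.60, q = 0.000463) and RRN18 (-0.55, q = 0.000866) in the authors' deposited table, and both calls were lost after centring. The open reading frame ORF110B was higher (1.07, q = 0.0109) in the authors' deposited table. Most organelle transcripts lack long poly(A) tails, and how RNA was selected for the libraries is not given in the sources used here.

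Among nuclear genes of photosynthesis 26 of 56 tested were lower (46.4%) and 3 higher, with a median of -0.55. After centring 19 were lower and 6 higher. PSBQA, of the oxygen-evolving complex, stood at -3.17 (q = 0.000463) and the photosystem I subunit gene AT1G49975 at -2.74 (q = 0.000463) in the authors' deposited table. PSAD-2, another photosystem I subunit gene, went the other way (0.83, q = 0.00573) in the authors' deposited table.

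**Figure D3:**
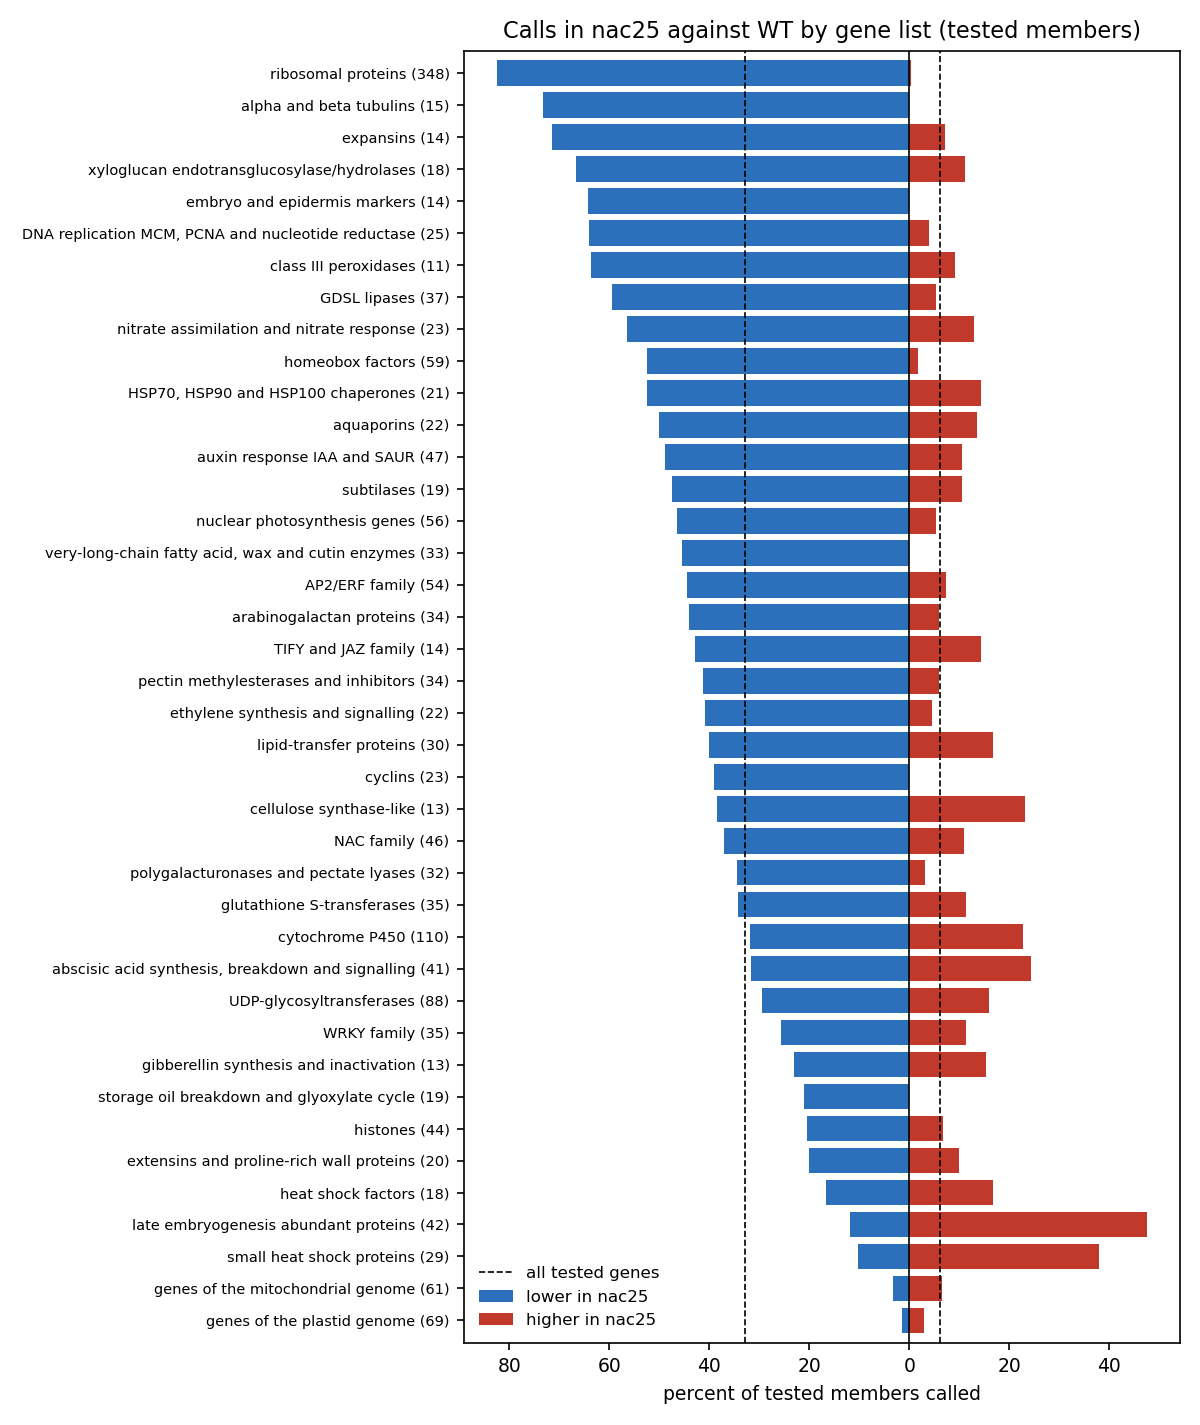
Percent of tested members called lower (left, blue) and higher (right, red) in nac25 for each list with at least 10 tested members, whose number stands in brackets. Dashed lines mark all tested genes, 32.8% lower and 6.25% higher; ribosomal protein genes reach 82.5% lower, and late embryogenesis abundant genes 47.6% higher.

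Cell wall families differed in their counts, and no test of a difference between families was made. Of 18 tested xyloglucan endotransglucosylase/hydrolase (XTH) genes, whose enzymes cut and rejoin the xyloglucan chains that tie cellulose together, 12 were lower (66.7%) and 2 higher, with a median of -2.92, and 11 lower and 2 higher after centring. The lower members included XTH4 (-5.28, q = 0.00193), XTH31 (-4.88, q = 0.000463), XTH18 (-4.86, q = 0.014) and XTH9 (-4.13, q = 0.000463) in the authors' deposited table. XTH11 (0.38, q = 0.0104) and XTH25 (0.63, q = 0.000463) went up in the authors' deposited table. Of 34 tested pectin methylesterase and inhibitor genes, which set how far pectin can be cross-linked, 14 were lower (41.2%) and 2 higher, and 12 lower and 7 higher after centring, but their median of -0.07 lay above that of all tested genes. The list was thus split. ATPMEPCRB (-4.35) and PME3 (-3.09) were lower and AT3G43270 was higher (1.55), each at q = 0.000463 in the authors' deposited table. Of 32 polygalacturonase and pectate lyase genes 11 were lower (34.4%) and 1 higher, a share near that of all tested genes, and 7 lower and 5 higher after centring.

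Arabinogalactan proteins, heavily glycosylated proteins of the cell surface, had 15 lower (44.1%) and 2 higher members among 34 tested, with a median of -0.86, and 13 lower and 3 higher after centring. AGP12 stood at -4.49 (q = 0.00829) and the fasciclin-like gene FLA2 at -4.37 (q = 0.000463) in the authors' deposited table. Of 7 tested cellulose synthase genes 2 were lower and 2 higher. CESA1, a subunit of the primary wall complex, stood at -0.51 and CESA2 at 0.59 (both q = 0.000463) in the authors' deposited table, and neither lower CESA call held after centring. Among 13 cellulose synthase-like genes 5 were lower (38.5%) and 3 higher, and 3 lower and 4 higher after centring. CSLC04, of the family that makes the xyloglucan backbone, was 8.38-fold lower (-3.07, q = 0.000463) and CSLA02, of the family that makes mannan, 6.04-fold lower (-2.59, q = 0.000463) in the authors' deposited table. CSLB04 was higher (1.35, q = 0.000463) in the authors' deposited table.

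Lists of cuticle and surface lipid genes held both lower members and members that did not pass. Of 33 tested genes of very-long-chain fatty acid, wax and cutin synthesis, 15 were lower (45.5%), none was higher by the authors' Cuffdiff test (2 at an unadjusted p below 0.05), and 18 did not pass. The median was -0.66, and after centring 15 were lower and 4 higher. The elongase genes KCS8 (-4.21) and KCS20 (-3.98) and the cutin gene GPAT4 (-3.83) were lower, each at q = 0.000463 in the authors' deposited table. Lipid-transfer protein genes, whose products carry lipids outside the cell, had a median of -1.49, with 12 lower and 5 higher (16.7%) of 30 tested. Among the 29 with a finite fold, 12 were lower and 4 higher after centring. AT4G22520, higher and listed at 0 in WT, was left out of centring. LTPG2 (-3.69, q = 0.000463) and LP1 (-3.25, q = 0.000463) were lower and AT1G18280 (1.19, q = 0.0311) was higher in the authors' deposited table. GDSL lipase genes, a family that includes cutin synthases, had 22 lower (59.5%) and 2 higher of 37 tested, with a median of -1.02, and 18 lower and 2 higher after centring. ARAB-1 stood at -4.29 and AT5G45670 at -4.08 (both q = 0.000463) in the authors' deposited table. Direct comparison with nac1L called 14 of 34 tested GDSL genes lower in nac25 (41.2%), against 11.7% of all tested genes, and none of these after centring. Because p has a floor, centring ends lower calls of modest fold whatever their evidence, so this loss does not show that the difference is absent.

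Subtilases, serine proteases many of which act in the cell wall, had 9 lower (47.4%) and 2 higher of 19 tested, and 8 lower and 3 higher after centring. AT5G59130 was 32.0-fold lower (q = 0.000463) and AT5G45650 18.5-fold lower (-4.21, q = 0.000463) in the authors' deposited table. Class III peroxidases, which can stiffen or loosen walls, had 7 lower (63.6%) and 1 higher of 11 tested, with a median of -0.93, and 6 lower and 2 higher after centring. AT2G22420 (-3.66) and AT5G39580 (-3.03) were lower, both at q = 0.000463 in the authors' deposited table.

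Water channel genes went both ways, whereas most tubulin genes were lower. Of 22 tested aquaporin genes 11 were lower (50.0%) and 3 higher (13.6%), with a median of -0.75, and 10 lower and 6 higher (27.3%) after centring. The plasma membrane channel genes PIP2;8 (-3.03), PIP3 (-2.34) and PIP1C (-2.27) were lower, each at q = 0.000463 in the authors' deposited table. BETA-TIP, a channel of the storage vacuole membrane of seeds, was higher (0.85, q = 0.000463) in the authors' deposited table. TIP3;1, its close relative, stood at 0.67 in the authors' deposited table and was higher, and was singled out after its value was seen. The third was PIP2B, a plasma membrane channel gene (1.00, q = 0.0385) in the authors' deposited table. Of 15 tubulin genes, which build microtubules, all were tested, 11 were lower (73.3%), 4 did not pass and none was higher by the authors' Cuffdiff test (0 at an unadjusted p below 0.05). After centring 8 were lower. TUB5 stood at -2.94, TUA6 at -2.22, TUA4 at -2.20 and TUB1 at -1.29, each at q = 0.000463 in the authors' deposited table. Tubulin genes are close copies, so reads could have been divided between them.

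Hormone lists had calls in both directions. Of 47 tested auxin response genes, IAA repressors and small SAUR genes tied to cell expansion, 23 were lower (48.9%) and 5 higher. Among the 43 with a finite fold the median was -0.84, and after centring 18 were lower and 9 higher. AT4G34760, AT4G34800 and AT4G34810, SAUR genes whose identifiers place them close together, stood at -3.60, -3.28 and -3.04 (each q = 0.000463) in the authors' deposited table. A further 3 SAUR genes were called lower and were listed at 0 in nac25, so no fold is given for them. They were left out of centring, as was AT1G19840, a SAUR gene called higher and listed at 0 in WT. Ethylene genes had 9 lower (40.9%) and 1 higher of 22 tested, and 5 lower and 6 higher after centring. The receptor gene ERS1 (-1.66) and ACO1 (-1.57), of the last step of ethylene synthesis, were lower and ACS2 (0.83), of the step before, was higher, each at q = 0.000463 in the authors' deposited table. Of 14 genes of the TIFY and JAZ family, which holds the repressors of jasmonate signalling, 6 were lower (42.9%) and 2 higher, and 4 lower and 2 higher after centring, with JAZ10 at -2.05 (q = 0.000463) and JAZ4 at 0.71 (q = 0.0029) in the authors' deposited table.

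Receptors of abscisic acid, the hormone that keeps seeds dormant, were among the lower genes of its list. PYL6 and PYL1 both stood at -2.40 and RCAR3 at -1.62, each at q = 0.000463 in the authors' deposited table. NCED2 (1.06, q = 0.0129) and NCED4 (1.06, q = 0.000463), of the family of carotenoid-cleaving dioxygenases, were higher in the authors' deposited table. NCED5 of the same family, named with its value known, was lower (-0.76, q = 0.00493) in the authors' deposited table. The list as a whole had 10 higher (24.4%) and 13 lower (31.7%) of 41 tested, and 22 higher and 9 lower after centring. GASA peptide genes, a family with gibberellin-regulated members, were split, with 2 lower and 2 higher of 7 tested, before and after centring. GASA6 stood at -4.17 and GASA2 at 0.60 (both q = 0.000463) in the authors' deposited table.

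Among transcription factors, homeobox genes had 31 lower (52.5%) and 1 higher of 59 tested. Among the 58 with a finite fold, 22 were lower and 2 higher after centring. HB-3 (-3.24) and HB31 (-3.00) were lower, both at q = 0.000463 in the authors' deposited table, and AT5G38300 was higher (1.02, q = 0.00321). Of 54 tested AP2/ERF genes 24 were lower (44.4%) and 4 higher, and 14 lower and 10 higher after centring, with DREB26 at -3.85 (q = 0.0154) and ANT, a growth regulator of organ primordia, at -2.05 (q = 0.000463) in the authors' deposited table. Of 46 tested genes of the NAC family itself 17 were lower (37.0%, near the 32.8% of all tested genes) and 5 higher, and 13 lower and 7 higher after centring. NAC048 stood at -4.23 (q = 0.00599) and CUC1, a boundary gene of the embryo, at -2.98 (q = 0.000463) in the authors' deposited table. ATAF1, a stress-related NAC gene, was higher (0.54, q = 0.000463) in the authors' deposited table. WRKY genes had 9 lower (25.7%) and 4 higher of 35 tested, and 7 lower and 8 higher after centring.

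Among cell division genes, most replication genes were lower. Of 25 tested replication genes 16 were lower (64.0%) and 1 higher, with a median of -0.997 on the log2 scale, and 14 lower and 4 higher after centring. MCM10 stood at -2.56 (q = 0.00321) and the origin recognition gene ORC2 at -2.37 (q = 0.00159) in the authors' deposited table, and RNR1, of the enzyme that makes deoxyribonucleotides, was higher (0.31, q = 0.0364). Cyclin genes had 9 lower (39.1%, near the 32.8% of all tested genes) and none higher of 23 tested by the authors' Cuffdiff test (1 higher at an unadjusted p below 0.05). After centring 5 were lower and 2 higher. The lower cyclins included CYCD4;2 (-2.49, q = 0.0168) and CYCD4;1 (-1.24, q = 0.000463) in the authors' deposited table. D-type cyclins drive entry into the cell cycle. Of 44 tested histone genes 9 were lower (20.5%) and 3 higher, and 5 lower and 6 higher after centring, with HIS1-3, a linker histone gene known from stressed plants, at 0.56 (q = 0.000463) in the authors' deposited table. Histone genes are also close copies.

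Some lists of seed maturation and protein protection had large shares of higher genes. All 8 tested genes of oil body proteins, oleosins, caleosins and steroleosin, were higher, from a list of 12 of which 3 had too many reads and 1 too few. All 8 were higher after centring too. Their median was 0.64, so the change was under 2-fold in the middle of the list. AT3G18570 (0.75) and the caleosin gene ATS1 (0.69) were higher, both at q = 0.000463 in the authors' deposited table. Of 42 tested late embryogenesis abundant (LEA) genes 20 were higher (47.6%) and 5 lower, and after centring 26 higher and 4 lower. The lower members included the dehydrin gene AT1G54410 (-1.88, q = 0.000463) in the authors' deposited table. Small heat shock protein genes had 11 higher (37.9%) and 3 lower of 29 tested, and 16 higher and 2 lower after centring. HSP23.6-MITO, of mitochondria, stood at 1.97 and HSP17.6A at 1.29 (both q = 0.000463) in the authors' deposited table. AT4G21870, a member of the HSP20-like family, fell the other way to -3.33 (q = 0.000463) in the authors' deposited table.

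The larger chaperones were divided. Of 21 tested HSP70, HSP90 and HSP100 genes 11 were lower (52.4%) and 3 higher (14.3%), and 4 lower and 6 higher after centring. HSP101, which pulls apart protein aggregates, was 3.12-fold higher (1.64) and Hsp70b higher as well (1.07), while Hsp70-2 was 5.00-fold lower (-2.32), each at q = 0.000463 in the authors' deposited table. HSFA9, a heat shock factor gene of seed maturation, was higher (1.16, q = 0.000463) and HSF4 lower (-1.13, q = 0.000463) in the authors' deposited table, within a list of 3 higher and 3 lower of 18 tested (3 and 2 after centring). Genes of detoxification had both directions. Of 110 tested cytochrome P450 genes 25 were higher (22.7%) and 35 lower (31.8%), and after centring 37 were higher and 27 lower. Of 88 tested UDP-glycosyltransferase genes 14 were higher (15.9%) and 26 lower (29.5%), and 25 higher and 14 lower after centring. The lower shares of both families lay near the 32.8% of all tested genes. CYP81F2, of indole glucosinolate modification, stood at -4.09 and CYP71B33 at 1.45 (both q = 0.000463) in the authors' deposited table. Glutathione S-transferase genes, some of them close copies, had 4 higher and 12 lower (34.3%, again near that of all tested genes) of 35 tested, and 12 higher and 8 lower after centring, with GSTU14 at -2.40 and GSTF3 at 1.04 (both q = 0.000463) in the authors' deposited table.

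The other lists gave few or mixed calls, apart from expansins and the list of DELLA repressors and gibberellin receptors. Expansins had 10 lower and 1 higher of 14 tested, before and after centring. The DELLA and receptor list had 6 lower and 1 higher of 9 (3 and 2 after centring). Its lower members included the repressor genes RGL1 (-2.09), RGL3 (-1.29), RGA1 (-1.16) and GAI (-0.62), each at q = 0.000463 in the authors' deposited table. Its higher member was the receptor gene GID1A (0.54, q = 0.000463) in the authors' deposited table. Against nac1L directly, 7 of 12 tested expansin genes (58.3%) and 9 of 16 tested XTH genes (56.2%, with 1 higher) were lower in nac25. Both shares exceed the 41.2% of GDSL lipase genes and the 11.7% of all tested genes, and none of these lower calls stayed after centring. Enzymes of gibberellin synthesis and inactivation had 3 lower and 2 higher of 13 tested (2 and 6 after centring), although GA3OX1, of the activating step, stood at -4.02 (q = 0.000463) in the authors' deposited table. Jasmonate synthesis had 2 lower and 1 higher of 8 (1 and 2 after centring), and extensins and proline-rich wall proteins 4 lower and 2 higher of 20 (3 and 6 after centring). Storage oil breakdown had 4 lower and none higher of 19 by the authors' Cuffdiff test (1 higher at an unadjusted p below 0.05), and 2 lower and 2 higher after centring. Of 9 albumin and cruciferin genes 4 had too many reads, 3 were higher and 1, SESA1, was lower (-1.82, q = 0.000463) in the authors' deposited table.

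Tissue markers were checked beside these groups. Of 14 tested embryo and epidermis markers 9 were lower, 5 did not pass and none was higher by the authors' Cuffdiff test (0 at an unadjusted p below 0.05). After centring 6 were lower. MYB66, of the root and hypocotyl epidermis, stood at -3.11 and SHR, of the vascular cylinder, at -3.06 (both q = 0.000463) in the authors' deposited table. The epidermis factor ATML1 stood at -0.11 (q = 0.522), the shoot meristem factor STM at -0.27 (q = 0.498) and the root factor SCR at -0.18 (q = 0.322) in the authors' deposited table, and none of these passed. Of the endosperm markers EXPA2 (-4.88) and MAN7 (-2.06) were lower, both at q = 0.000463 in the authors' deposited table, and EPR1 had too many reads. Of 3 tested seed coat markers 1 was lower, TTG2 (-1.76, q = 0.000463) in the authors' deposited table. The part of tissue makeup in the gene groups above was not tested.

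The direct comparison of the mutants in the deposited table asked where nac25 differed from nac1L. Of 17743 genes tested there, 2078 were lower (11.7%) and 108 higher (0.609%) in nac25. This split turned with the scale: after centring on the median of that comparison, -0.20, 31 were lower (0.175%) and 190 higher (1.07%). The turn is partly set by the method. The standard error was implied by a p with a floor, so a lower gene with a modest fold lost its call however strong its evidence, whereas higher genes at the floor could not. Both comparisons of the mutants with WT share the WT libraries, so their values are set side by side only. Class III peroxidase genes held 3 of the lower genes that kept their call after centring. Relative to nac1L, AT5G39580 stood at -2.17, AT5G64120 at -1.91 and PRX52 at -2.13, each at q = 0.000463 in the authors' deposited table. PRX52 was lower in nac25 than in WT (-1.23) and higher in nac1L than in WT (0.90) in the authors' deposited table.

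The 10 largest differences were taken among genes with a finite fold called both in the direct comparison and in nac25 against WT. Of these 10 genes, 9 were lower in nac25 than in nac1L. Among all genes called in the direct comparison, 95.1% were lower in nac25. AGP12 had the widest gap, -4.10 (q = 0.00829), with -4.49 in nac25 and -0.39 in nac1L over WT in the authors' deposited table, but this call was lost after centring. KCS1, an elongase gene of wax synthesis, kept its call, with -2.48 between the mutants (q = 0.000463) and -2.86 in nac25 against -0.38 in nac1L in the authors' deposited table. The legume lectin gene AT3G16530 (-3.31, q = 0.000463) kept its call as well in the authors' deposited table. HEI10, a gene of meiotic crossover formation, was the member higher in nac25 (2.58, q = 0.000463), with -0.45 in nac25 and -3.03 in nac1L over WT in the authors' deposited table.

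**Figure D4:**
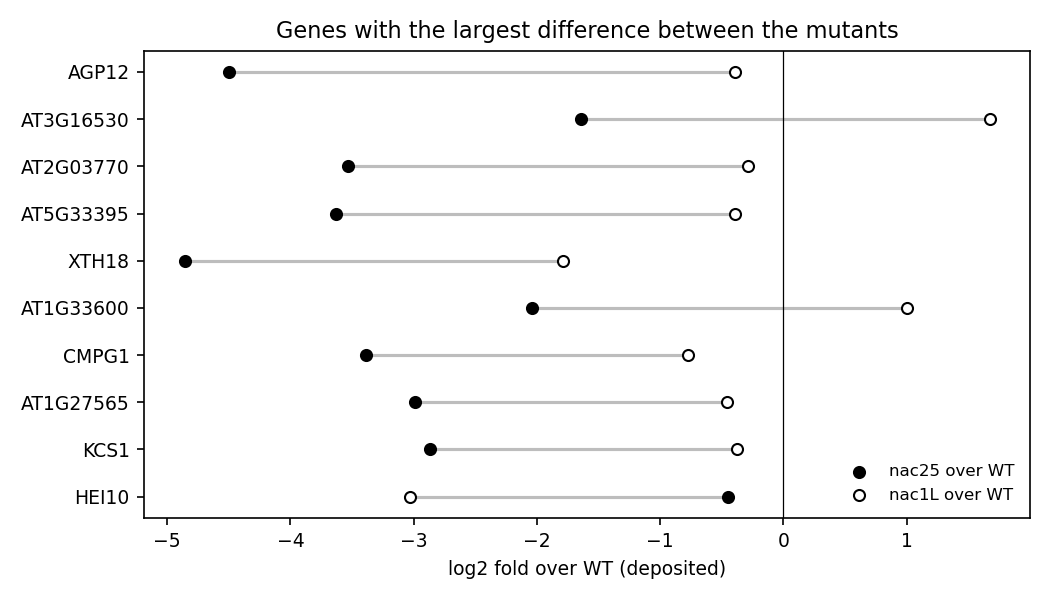
Log2 fold over WT (x axis) in nac25 (filled) and nac1L (open) for the 10 genes with the largest difference between the mutants among genes called in that comparison and in nac25 against WT. All but HEI10 lie lower in nac25; AT3G16530 and AT1G33600 lie on opposite sides of 0.

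Some small heat shock protein and seed storage genes were higher in nac25 than in nac1L. Of 28 tested small heat shock protein genes 11 were higher and 1 lower in the direct comparison, and 11 higher and none lower after centring. HSP23.6-MITO stood at 0.71 and AT1G52560 at 0.91 between the mutants (both q = 0.000463) in the authors' deposited table. Of 8 tested oil body protein genes 4 were higher in nac25, among them ATS1 (0.43, q = 0.00437) in the authors' deposited table. Of 6 tested albumin and cruciferin genes 3 were higher in the direct comparison, and the others did not pass before centring. After centring 5 oil body genes and 5 albumin and cruciferin genes were higher, with SESA1 and SESA4 among the latter. Of all genes tested there 0.609% were higher before centring and 1.07% after it. The cruciferin gene CRU2, of a major storage globulin, was higher by 0.68 between the mutants (q = 0.000463) in the authors' deposited table, with 0.53 in nac25 and -0.15 in nac1L relative to WT.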

How the data were processed

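Whole-seed RNA came from a phenol extraction with column cleanup and went into stranded libraries, per the labels' protocols. The submitters' processing notes name Cuffdiff 2.2.1.3, TopHat2 2.1.0 and FastQC 0.11.5. The build, the annotation, the strand setting of counting and the normalization were not given in the sources used here. Per the file headers, the deposited table gives a log2 fold, a p-value and a q-value for each gene and genotype pair. The log2 fold deposited by the authors was read as the second genotype over the first, and spreadsheet error cells as a value of 0 in the second genotype. The deposited p-value has a floor of 5e-05, and each deposited q-value matched, within 5.27e-07, what Benjamini-Hochberg gives over the 54131 tests of all 3 comparisons.

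The test was the authors' own, at q = 0.05 or less. The planned tests on count or per-library values did not apply, because the table holds comparisons. The p-values are those of Cuffdiff, from samples labelled as biological replicates. How they weigh the spread between these samples could not be checked without values per library. Identifiers were matched to the TAIR10.1 annotation for symbols, products and gene lengths (32809 matched). Counts were made over 49 lists with 3023 genes. The comparison, the lists and the genes were chosen with earlier results of these data known, and lists were corrected on annotation, for symbols shared by unrelated genes, after the files were seen. Genes were named by rule. The rule took the 15 largest increases, the 15 largest decreases, and up to 4 called members per list plus 2 against its majority. It also took NAC25, NAC1L and EXPA2, 5 called genes listed at 0 and the tissue markers. The 10 largest differences between the mutants were added, among genes with a finite fold called there and in nac25 against WT. Centring subtracted the median log2 fold, took the standard error implied by the deposited p, recomputed the p and adjusted within the comparison. Genes without a finite fold were left out. It was tried on simulated data with few changed genes, as many up as down. That trial does not show how centring behaves where most called genes are lower. Python 3.11.15, numpy 2.4.6, pandas 2.3.3, scipy 1.17.1 and matplotlib 3.10.9 were used.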

Additional observations from a re-analysis of the deposited data

Results flagged for a closer look

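For 2 genes the mutants went in opposite directions from WT by at least 2-fold, both calls passed, and the direct comparison of the mutants was called as well. The legume lectin gene AT3G16530 was lower in nac25 (log2 -1.64) and higher in nac1L (1.67), with a difference between the mutants of -3.31 (q = 0.000463) in the authors' deposited table. The glutathione S-transferase gene GSTF7 was lower in nac25 (-1.02) and higher in nac1L (1.09), with a difference of -2.11 (q = 0.000463) in the authors' deposited table. GSTF7 is a close copy of a neighbouring gene, so its reads could have been divided.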

How the results depend on the processing

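At q of 0.01 or less 750 genes were higher in nac25, against 1135, and 773 differed between the mutants, against 2186. Adjusting over the comparison of the mutants alone left 965, of which 64 were higher in nac25. At 2-fold or more, 124 genes were higher and 2013 lower than WT, and 180 differed between the mutants. Centring gave 3153 higher, 3084 lower and 221 between the mutants. Counting genes without a test by sign, as values only, gave 2732, 8972 and 7072. Of 257 named genes with a finite fold and a call, all kept their direction, which these settings could hardly change. Centring ended 18 of their calls, q of 0.01 or less 51 and 2-fold 69. Of the 98 counts of members higher or lower in the 49 lists, more than 1.5 times of change was seen in 4 when adjusted over the comparison alone, 25 at q of 0.01 or less, 39 after centring, 55 with untested genes counted by sign and 62 at 2-fold. The implied standard error is too large where p is at its floor and unstable for folds near 0: 376 of the genes higher after centring had a deposited fold within 0.1 of 0. At the floor centring can end a lower call but not a higher one, so centred splits of direction are partly set by the method. No paired analysis was possible because the table holds no value per library; leaving out replicates, other normalizations and other count tests were not run for the same reason. Promoter motifs were not run, because no genome build is stated for the table. Depth and detection limits are unknown.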

Other observations

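The share of lower genes in nac25 varied with gene length and hardly with chromosome. Nuclear tested genes were put in 5 equal bins by annotated length, which 99.6% of them had. Of the longest genes, from 3644 bases, 22.7% were lower, against 33.4% to 38.9% in the other bins. The median log2 fold ran from -0.47 in the shortest to -0.09 in the longest. The share of higher genes lay between 5.61% and 7.72%. These are descriptions, and no test was made.

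Of the called genes 33 were listed at 0 in nac25 and 10 in WT. By the rule on names, AT1G16640, a B3-type factor gene, AT1G20280, a homeobox-leucine zipper-like gene, AT1G47400 and the methyltransferase-like gene AT1G69526 were listed at 0 in nac25 and AT1G49310 in WT, each at q = 0.000463 in the authors' deposited table. The defence gene PR1, the peptide gene CLE1 and the microRNA genes MIR168a, MIR161 and MIR171b, singled out after their values were seen, were among those listed at 0 in nac25 in the authors' deposited table. Libraries of this kind count precursors at most, so these values do not speak of mature microRNAs.

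Of the 10 genes on either side of NAC25 in the order of identifiers 5 were tested and 2 were lower, where 32.8% of all tested genes were. AT1G61150 stood at -0.39 (q = 0.0138) and AT1G61180 at -0.96 (q = 0.00437) in the authors' deposited table, the first of these calls being lost after centring, and the nearest tested gene, AT1G61100, stood at -0.16 (q = 0.434).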
